A study of Mus musculus with 3 samples.

Results

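Heat shock proteins and chaperones were examined as targets of Tet2, an enzyme that oxidises 5-methylcytosine, in mouse bone marrow derived mast cells. The 90 genes were chosen by symbol: every protein-coding gene beginning with Hsp (followed by a, b, d, e, h or 90), Dnaj, Cct with a digit, or Pdia, together with Calr and Canx, out of 21900 protein-coding genes annotated on the mouse genome. By known location of their proteins, 20 were placed in the endoplasmic reticulum, 45 in the cytosol or nucleus and 8 in mitochondria, and 17 had another or no set location. The data were 3 replicate Tet2 CLIP libraries, which form 1 group, from C57BL/6 cells cultured in stem cell factor and interleukin-3. No genotype or treatment differs between the libraries, and the cells carried FcεRI and Kit on their surface. RNA was cross-linked to protein with ultraviolet light, and endogenous Tet2 was pulled down with an antibody. Neither an input nor a control pull-down was analysed here, and no RNA level was measured, so a peak cannot be told apart from high abundance of the RNA.

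Chaperones help other proteins fold. In the cytosol, J-domain proteins (the Dnaj genes) hand unfolded clients to Hsp70 proteins, exchange factors reset the Hsp70 cycle, Hsp90 takes on later steps, and the ring-shaped chaperonin built of Cct subunits folds actin and tubulin. In the endoplasmic reticulum, BiP (Hspa5) is the resident Hsp70, calnexin and calreticulin bind sugar chains on new glycoproteins, and protein disulfide isomerases form disulfide bonds. Mast cells store and secrete large amounts of protein, much of which passes through that compartment.

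Deposited heights are shares of the library's total, and each is a whole number of equal steps, here called height units. The libraries held 3019, 2800 and 2377 peaks and 19213, 18270 and 15431 units in replicates 1, 2 and 3, with a median height of 4 units in each. The lowest peaks listed stood at 2, 2 and 3 units, so a gene without a peak may lie just under the limit of the list. Sequencing depth is unknown. Of 15 mast cell marker genes found in the annotation, 9 held a peak, among them Kit, Gata2, Hdc and Cpa3, while Fcer1a and Ms4a2 held none. Of the markers of other blood cells, 1 of 8 macrophage genes (Adgre1, 3 units in replicate 2) held a peak, and none did of 8 neutrophil, 8 lymphocyte, 2 basophil and 6 erythroid genes.

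Most chaperone genes carried no Tet2 peak. Of the 90 genes, 17 (18.9%) had 1 or more peaks in any library and 73 had none, against 3086 of 21900 protein-coding genes (14.1%). A peak in all 3 libraries was found in 5 chaperone genes (5.56%), against 693 protein-coding genes (3.16%). A locus shared by all 3 libraries, with peaks overlapping by at least 1 nt, was found in 2 (2.22%), against 462 protein-coding genes (2.11%). For the family as a whole these shares were close to the background, and no test was made of them. By library, 12, 8 and 8 chaperone genes held a peak in replicates 1, 2 and 3 (10.4% ± 2.57 of the 90, SD, n = 3), against 7.87% ± 0.779 of all protein-coding genes. The background in the single libraries was 8.55%, 8.04% and 7.02%. Replicate 1 added most of the genes seen once: without it, 11 chaperone genes held a peak. The genes with a peak were not the longest of the family, with a median span of 17470 nt, against 17421 nt for all 90. Among all protein-coding genes, the median was 29151 nt for those with a peak and 17146 nt overall.

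A larger share of the chaperones of the endoplasmic reticulum than of those of the cytosol held peaks, on few genes. Of the 20 genes of the endoplasmic reticulum, 6 held a peak (30%), namely Hspa5, Dnajb9, Canx, Calr, Pdia3 and Dnajb12. Of the 45 cytosolic or nuclear genes, 8 did (17.8%), namely Hspa4, Cct4, Hsp90ab1, Hspa8, Dnaja2, Dnaja4, Cct8 and Dnajb6. The counts were 4, 5 and 3 genes of the endoplasmic reticulum (20% ± 5.00, SD, n = 3) and 5, 3 and 5 cytosolic or nuclear genes (9.63% ± 2.57) in replicates 1, 2 and 3. Over all protein-coding genes the share was 14.1% in any library, and 8.55%, 8.04% and 7.02% in replicates 1, 2 and 3. The lowest share of the first class (15.0%, 3 of 20 genes) lay above the highest of the second (11.1%, 5 of 45 genes), so few genes set this gap. The difference was not tested because the classes were compared with results known. With peaks of at least 5 units alone, the classes were closer. The counts were 3 of 20 genes of the endoplasmic reticulum (15.0%) and 5 of 45 cytosolic or nuclear genes (11.1%), with 5.65% of protein-coding genes as background. Without Pdia3, whose peak lies in several spans, the count of the endoplasmic reticulum was 5. In all 3 libraries, 3 genes of the first class (15.0%) and 2 of the second (4.44%) held a peak, against 3.16% of all protein-coding genes. The remaining genes were Dnajc11 among the 8 mitochondrial ones and Dnajb3 and Dnajc5 among the 17 others.

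**Figure D1:**
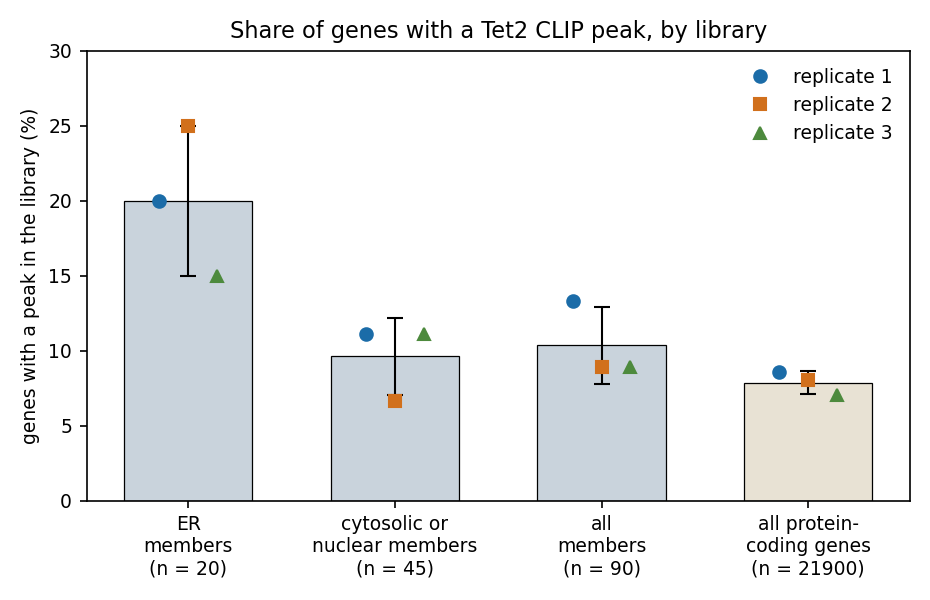
Percent of genes with a Tet2 CLIP peak in each library for 20 chaperone genes of the endoplasmic reticulum (ER), 45 of the cytosol or nucleus, all 90, and all 21900 protein-coding genes. Bars are means, error bars the SD of 3 libraries and symbols the libraries; the ER genes lie at 15.0 to 25.0%, and all 90 together (8.89 to 13.3%) lie just above the background.

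Chaperone peaks together held about the height of an average set of genes of that size. They summed to 76, 44 and 39 units in replicates 1, 2 and 3, or 0.296% ± 0.0861 of the summed height (SD, n = 3). At the mean height per protein-coding gene, 90 genes would hold 0.297%. Genes of the endoplasmic reticulum contributed 39, 30 and 21 units, and cytosolic or nuclear genes 28, 14 and 18. The former held 0.168% ± 0.0336 of the height, where as many average protein-coding genes would hold 0.0660%. The latter held 0.113% ± 0.0347, where as many would hold 0.149%. The whole set was thus near the average with 1 class above it and 1 below, which was not tested. Most chaperone peaks were low: 16 of 30 (53.3%) stood at 3 or 4 units, and 2 reached 10 units or more. Of all peaks in protein-coding genes, 65.0% stood at 4 units or less and 8.31% at 10 or more.

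The tallest chaperone peaks were in the endoplasmic reticulum chaperone BiP and in Dnajb9, its J-domain partner, also known as ERdj4. Dnajb9 lies on chromosome 12 (44205897 to 44210068, minus strand) and held 1 peak of 11, 6 and 9 units in replicates 1, 2 and 3. Its 3 peaks were centred 43, 83 and 45 nt from the 5′ end of the gene. Replicates 1 and 3 overlapped over 8 nt, and the peak of replicate 2 began 4 nt away. Dnajb9 was thus high in every library, and it was the only chaperone gene with a peak of at least 5 units in all 3.

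Hspa5 lies on chromosome 2 (34772090 to 34776529, plus strand), with tallest peaks of 16, 5 and 3 units. The peak of 16 units in replicate 1 covered 1 nt, at 284 nt from the 5′ end. Replicates 2 and 3 had wider peaks of 34 and 49 nt, centred at 234 and 227 nt, which overlapped each other over 34 nt and ended 32 nt before that position. A further peak of 4 units stood 43 nt from the 5′ end in replicate 1 alone. The height at Hspa5 therefore rested on 1 library, while the region of the gene was the same in all 3.

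The letters under the first peaks of Dnajb9 and Hspa5 are shown because these peaks reach the annotated start windows, for which sequence was at hand. They are given 5′ to 3′ on the strand of the gene, from RefSeq on GRCm38.p6, which numbers bases as mm10 does. Capitals mark bases inside the peak, and each stretch runs from base 21 to base 50 of the listed transcript, counted from 1 at its start. For Dnajb9 the stretch is chr12:44210019-44210048 on the minus strand, and for Hspa5 it is chr2:34772110-34772139 on the plus strand, where the peak goes on past the last base shown.
Dnajb9, replicate 1: gggaggaggctactcggCGTTCGGAGGCGa
Dnajb9, replicate 3: gggaggaggctactcggcgttCGGAGGCGa
Hspa5, replicate 1: actgacctggaCACTTGGGCTTCTGCGTGT
The peaks of Dnajb9 in replicates 1 and 3 ended at the same base, and the shorter was 8 nt wide against 12 nt. Exons were not analysed here, so these stretches were not assigned to a UTR or coding part.

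The lectin chaperones and the disulfide isomerase that works with them differed in how often they were seen. Canx, which encodes the membrane-bound calnexin (chromosome 11, 50293957 to 50325673, minus strand), had tallest peaks of 4, 8 and 9 units. These peaks were centred 132, 149 and 127 nt from the 5′ end and overlapped in every pair of libraries, by 13 to 21 nt. Canx was thus 1 of the 2 chaperone genes with a locus shared by all libraries, and replicate 2 held a further peak of 5 units at 368 nt. Calr, which encodes the soluble counterpart calreticulin (chromosome 8), held 1 peak of 4 units in replicate 1, at 864 nt from the 5′ end, and none in replicates 2 and 3. Pdia3, the isomerase ERp57 that calnexin and calreticulin recruit (chromosome 2), held 1 peak of 3 units and 1 nt in replicate 2. That position also lies in the span of Catsper2, so the peak cannot be credited to a single gene. Pdia2, Pdia4, Pdia5 and Pdia6 held no peak, and neither did Hsp90b1, the Hsp90 of the endoplasmic reticulum. Dnajb12, a membrane J-domain protein, held a peak of 3 units in replicate 2, far from its start at 19010 nt.

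Cytosolic Hsp70 and Hsp90 genes gave peaks that were mostly seen once. Hspa4, an Hsp110-type exchange factor for Hsp70 (chromosome 11, 53259814 to 53300479, minus strand), was the exception with 8, 3 and 3 units in replicates 1, 2 and 3. Its peaks lay 303, 241 and 455 nt from the 5′ end of a span of 40666 nt and did not overlap, with gaps of 47 to 174 nt between libraries. Hspa8, the constitutive Hsp70 (chromosome 9), held 1 peak of 6 units and 3 nt in replicate 2, and Hsp90ab1, the constitutive Hsp90 (chromosome 17), 1 peak of 7 units in replicate 1. The stress-inducible genes Hspa1a, Hspa1b and Hsp90aa1 held no peak in any library. Of the 13 Hspa genes 3 held a peak. None did among the 10 genes whose symbols begin with Hspb, or among Hspd1, Hspe1 and Hsph1. The 10 include the small heat shock proteins, but also Hspbp1 and Hspbap1. The background was 14.1%, and differences between these small groups were not tested. Several of these genes have near-identical copies (Hspa1a with Hspa1b, and processed copies of Hspa8), and how reads were shared among copies was not analysed here.

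Of the 9 Cct genes, 2 held a peak (22.2%, with 14.1% of protein-coding genes as background), a gap on few genes that was not tested. Cct4, a subunit of the chaperonin (chromosome 11, 22990593 to 23003336), held 1 peak of 7, 5 and 3 units in replicates 1, 2 and 3. All of its peaks overlapped: those of replicates 2 and 3 covered the same 56 nt, and that of replicate 1 overlapped them over 38 nt. Cct4 was therefore the most closely placed of the chaperone loci, with Canx the other locus shared by all libraries. Cct8, another subunit (chromosome 16), held 1 peak of 3 units in replicate 1. Cct2, Cct3, Cct5, Cct6a, Cct6b, Cct7 and Cct8l1 held none, and neither did Tcp1, a further subunit of the same ring that the symbol rule leaves out.

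J-domain genes were the largest group by symbol. Of 45 such genes, 8 held a peak (17.8%, near the background of 14.1%): 2 of 4 Dnaja, 4 of 13 Dnajb and 2 of 28 Dnajc genes. Dnaja2 held a peak of 5 units in replicate 3, and Dnajb6, which restrains protein aggregation, a peak of 3 units in replicate 3. Dnaja4 held peaks of 3 units in replicate 1 and 4 units in replicate 3, 9559 nt apart, so the libraries did not point to the same place. Dnajc11, a mitochondrial protein, and Dnajc5, the cysteine string protein of secretory vesicles, each held a peak of 3 units in replicate 1. The single peak of Dnajb3 (3 units, replicate 1) lies where its span overlaps 8 Ugt1a genes and cannot be credited to it.

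**Figure D2:**
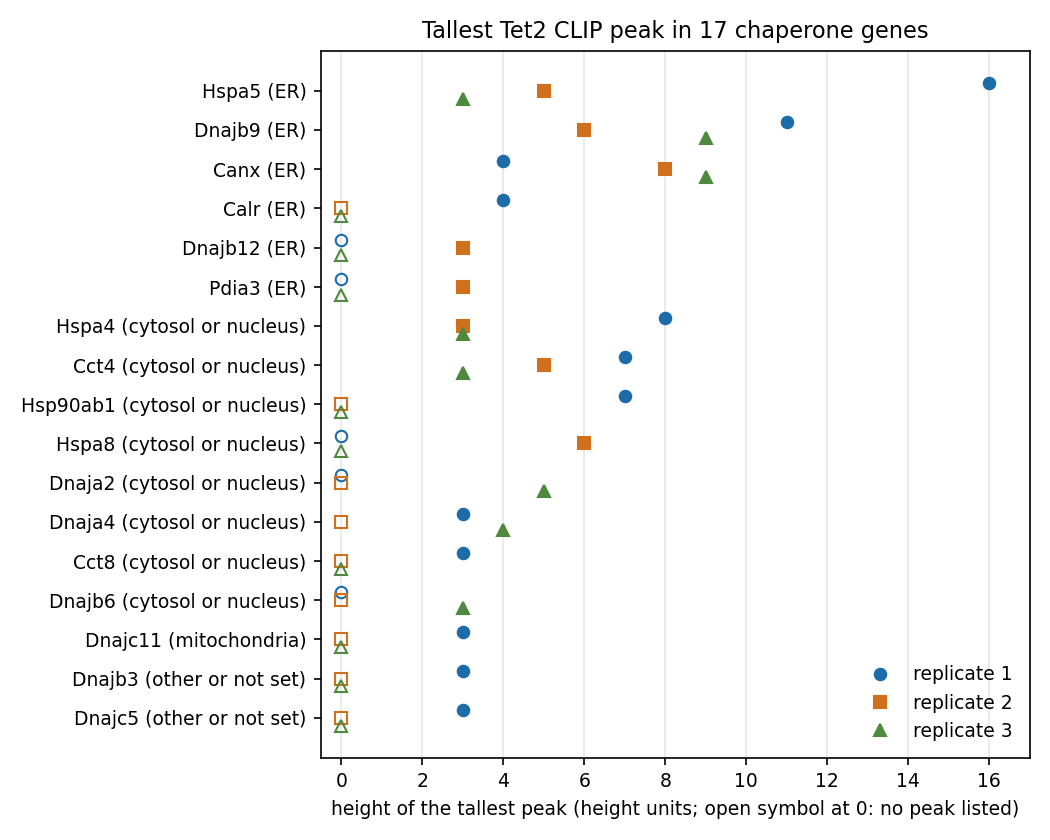
Height of the tallest Tet2 peak in replicates 1, 2 and 3 (height units, linear axis) for the 17 chaperone genes with a peak, grouped by location of the protein; an open symbol at 0 means that the library lists no peak. Hspa5, Dnajb9, Canx, Hspa4 and Cct4 have a peak in all 3 libraries, and most other genes have a single peak of 3 to 7 units.

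Chaperone peaks lay close to the starts of their genes. Strand was known for 12 of the 17 genes, with 23 of the 30 peaks, and 19 of these 23 (82.6%) were centred within 500 nt of the 5′ end of the span. In other protein-coding genes the same held for 1383 of 5854 peaks (23.6%). By library the share was 83.1% ± 4.58 (SD, n = 3) for chaperone genes and 23.7% ± 1.07 for other protein-coding genes. The chaperone shares, 77.8%, 85.7% and 85.7% in replicates 1, 2 and 3, did not overlap those of other genes, 23.3%, 22.9% and 24.9%. The median distance was 234 nt in chaperone genes and 6434 nt in other genes. Genes with a peak had shorter spans among the chaperones (median 17470 nt) than among other genes (29325 nt), and these distances were not matched for span. None of the 23 peaks lay within 500 nt of the 3′ end, and 4.05% did in other genes. Were the 23 peaks independent, a count of 0 would allow a share of up to 13.0%. They come from 12 genes, so the share allowed is larger than that. The limit of 500 nt was set after the distances were seen, and peaks of the same gene share their source.

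Counted by gene, 9 of the 12 chaperone genes (75.0%) held a peak within 500 nt of the 5′ end, against 828 of 2425 other protein-coding genes with a peak and a known strand (34.1%). The 9 were Dnajb9, Canx, Hspa5 and Pdia3 of the endoplasmic reticulum, Cct8, Dnaja2, Dnajb6 and Hspa4 of the cytosol, and Dnajb3. The peaks of Pdia3 and Dnajb3 also lie in spans of other genes, and the span of Dnajb3 is only 1017 nt. With peaks in 1 gene span alone, 81.0% of chaperone peaks with a known strand lay within 500 nt of the 5′ end. The share of peaks was similar in the classes, with 12 of 14 for the endoplasmic reticulum and 6 of 8 for the cytosol or nucleus. All 3 genes beyond that limit, Calr, Dnaja4 and Dnajb12, held peaks of 3 or 4 units. In Dnaja4, the peak of replicate 3 lies 801 nt from the end of the span but 90 nt from another listed transcript start. All chaperone peaks of at least 5 units with a known strand lay within 500 nt of the 5′ end. They came from Dnajb9, Canx, Hspa5, Hspa4 and Dnaja2 alone. Other genes were not compared at that height, so a link between height and position was not tested.

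Peaks near gene ends were also frequent in long genes. In spans of at least 10000 nt, 17 of 19 chaperone peaks (89.5%) fell within 5% of the span length from either end, against 2200 of 5781 peaks in other protein-coding genes (38.1%). Over spans of any length the share was 70.0% for chaperone genes and 34.8% for other genes. The 5 genes without a known strand were placed by distance to the nearer end. Cct4 peaks lay 214 to 224 nt from it, the Hspa8 peak 306 nt, the Dnajc11 peak 377 nt, the Hsp90ab1 peak 401 nt and the Dnajc5 peak 3676 nt. Which parts of these genes are transcribed as exons, and how read coverage falls along them, was not analysed here, so a preference of Tet2 cannot be told apart from the coverage of the RNA.

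**Figure D3:**
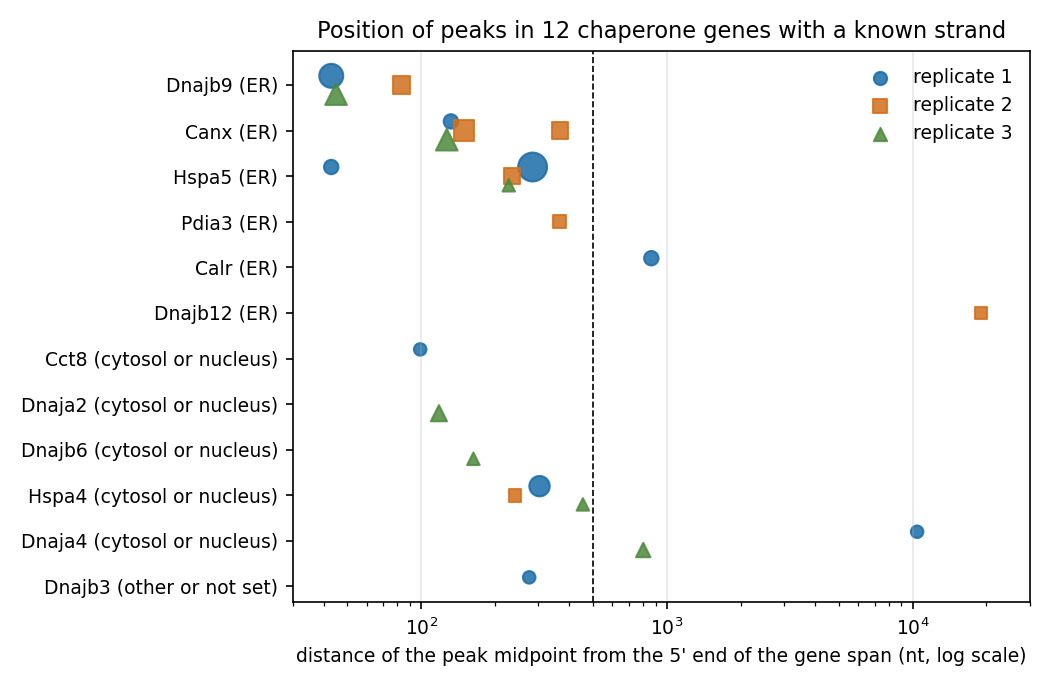
Distance of each peak midpoint from the 5′ end of the gene span (nt, log axis) in the 12 chaperone genes with a known strand; colour and shape give the library, symbol area the height, and the dashed line 500 nt. Peaks of Dnajb9, Canx, Hspa5 and Hspa4 from all 3 libraries sit left of the line, and those of Calr, Dnajb12 and Dnaja4 right of it.

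**Figure D4:**
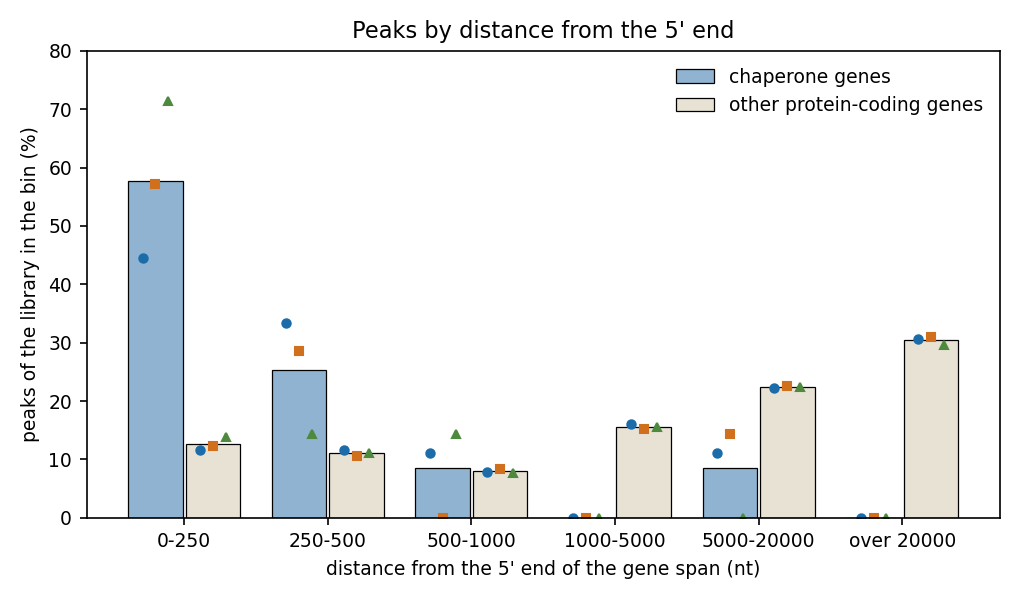
Percent of the peaks of a library in bins of distance from the 5′ end (nt), for chaperone genes (23 peaks in all) and other protein-coding genes (5854 peaks). Bars are means of 3 libraries and symbols the libraries; the first 2 bins hold most chaperone peaks, while other genes have 29.5 to 31.0% of their peaks beyond 20000 nt.

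The start windows of these genes, 250 bases before to 50 after each listed start, were searched for the endoplasmic reticulum stress element, letters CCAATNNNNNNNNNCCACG, on both strands. This element is bound by NF-Y with ATF6 and drives chaperone genes in the unfolded protein response. It was present in 6 of the 18 endoplasmic reticulum genes with a window and in none of the 38 cytosolic or nuclear genes, and in 0.166% of the 17492 protein-coding genes with a window. Of the 6 genes, Hspa5, Canx and Calr held Tet2 peaks and Hsp90b1, Pdia6 and Dnajc3 held none. These were 3 of the 12 chaperone genes with a peak and a window (25.0%) and 3 of the 63 with a window and no peak (4.76%), counts that were not tested. All 6 belong to the endoplasmic reticulum class, which also held the larger share of genes with a peak. The shares over all chaperone genes therefore mix the classes, and a link of the element to peaks cannot be read from them. Within the class, 3 of the 6 genes with a peak had the element. So did 3 of the 14 without a peak, not all of which had a window. These counts are small and were not tested. The other genes of the class with a peak, Dnajb9, Pdia3 and Dnajb12, had a window without the element. The matches follow, with the fixed letters in capitals, on the strand of the match, from RefSeq on GRCm38.p6. They lie at chr2:34772025-34772043 (plus), chr11:50325800-50325818 (minus), chr8:84847075-84847093 (plus), chr12:17266491-17266509 (plus) and chr14:118937827-118937845 (plus) for Hspa5, Canx, Calr, Pdia6 and Dnajc3. Hsp90b1 had 2 matches, and the one nearer the start, at chr10:86705533-86705551 (plus), is shown.
Hspa5: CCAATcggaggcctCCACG
Canx: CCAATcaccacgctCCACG
Calr: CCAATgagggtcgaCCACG
Pdia6: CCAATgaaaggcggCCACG
Dnajc3: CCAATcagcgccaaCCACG
Hsp90b1: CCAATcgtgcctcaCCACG
All lie before the transcript start, at 47 to 65 nt for Hspa5, the closest, so they are outside the RNA that begins there. The heat shock element, letters GAANNTTCNNGAA, was found in 4 of the 75 chaperone genes with a window (5.33%), and in 0.595% of protein-coding genes with a window. The 4 were Dnajb6, Hspd1, Hspe1 and Hsph1, where Hspd1 and Hspe1 share a window region and its matches. Of the 4, Dnajb6 alone held a peak, as did 12 of all 75 chaperone genes with a window. Only exact matches inside a window were counted, so a variant of either element, or one farther away, would be missed. Genes without a window, among them Hsp90aa1, Hsp90ab1, Hspa8 and Hspa9, were not searched. No match of either element overlapped a match of the other.

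Genes that work with these chaperones were followed by lists, none of which shares a gene with the 90. Of 14 regulators of the unfolded protein response, 8 held a peak (57.1%, with 14.1% of protein-coding genes as background). The tallest were in Xbp1, a transcription factor of that response, with 12, 15 and 11 units in replicates 1, 2 and 3, which was high in every library. Next came Atf4 with 7, 4 and 0 units, Atf6b with 3, 7 and 0, and Ern1, whose product IRE1 splices Xbp1 RNA, with 6, 0 and 0. Xbp1 was the only regulator with a peak in all 3 libraries. Of 31 partners in quality control and secretion at the endoplasmic reticulum, 13 held a peak (41.9%), and 2 did in every library. These were P4hb, a protein disulfide isomerase outside the symbol rule, with 4, 5 and 6 units, and Ero1a, the oxidase that recharges such isomerases, with 5, 5 and 5. Edem1 (4, 5 and 0), Sec62 (5, 0 and 0) and Ssr4 (0, 0 and 5 units) followed.

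Of 33 heat shock factors and cytosolic co-chaperones, 7 held a peak (21.2%), 3 of them in every library. Nudc, an Hsp90 co-chaperone, reached 13, 12 and 7 units, above every cytosolic chaperone among the 90 in replicates 1, 2 and 3. Bag6, which escorts membrane proteins in the cytosol, reached 10, 5 and 3 units, and St13, an Hsp70 partner, 3, 6 and 5. Ahsa1, which activates Hsp90, reached 6, 3 and 0 units and Unc45a 3, 6 and 0. Of 12 genes of mitochondrial protein quality control, 2 held a peak (16.7%), Clpx and Pam16, each of 3 units in 1 library. Peaks within 500 nt of the 5′ end numbered 7 of 16 (43.8%) for the regulators and 10 of 23 (43.5%) for the endoplasmic reticulum partners. They numbered 10 of 15 (66.7%) for the co-chaperones and 0 of 2 for the mitochondrial genes. In protein-coding genes outside the 90 the share was 23.6%. Frequent peaks near the 5′ end were therefore not particular to the chaperone genes. The lists were chosen with results of these data known, and no test was made of them.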

How the data were processed

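Per the labels' protocols, the authors cross-linked the cells, pulled down Tet2, and called peaks in each library by a valley-seeking algorithm. Cutadapt 1.9, STAR 2.4.0i and the build mm10 are named per the submitters' processing notes, and the sources used here give neither the caller's version nor its thresholds. The deposited values are a signal: normalized peak heights, per the file headers, that sum to 1 per library. Starts were read as 0-based and are printed 1-based. Heights were divided by their step, within 0.05 of a whole number for every peak. Each peak went to every RefSeq gene span (GRCm38.p6) around its midpoint. Strand came from RefSeq start windows, found for 75 of the 90 genes. The assignment and the merging of loci were tested on simulated peaks that either overlapped or lay far apart between libraries. That test does not cover gaps such as the 4 to 174 nt between libraries at Dnajb9, Hspa5 and Hspa4. The analysis used Python 3.11.15 and pandas 2.3.3. The symbol rule, location classes and lists were chosen with earlier results of these data known. Named were genes with a peak in 2 libraries or of at least 5 units, a set of main chaperones, and the 4 tallest of each list, ties included. Other genes with a peak were named for completeness. The labels name no separate animals, so the SD may be partly technical. With 1 group and no control, no test between groups was made.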

Additional observations from a re-analysis of the deposited data

How the results depend on the processing

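No paired analysis was possible because the libraries form 1 group. Of 58 alternative values, 47 stayed within 1.5 times the reported count, or within 1 SD of the reported percent, and 11 moved further. With a library left out, a peak or locus in all 3 libraries became one in all remaining libraries. That is a looser condition, and a gene with a peak in all 3 always meets it. The counts under it are among the 47, so they say little about how stable the results are. Requiring peaks of at least 5 units left 8 chaperone genes with a peak (3 of the endoplasmic reticulum, 5 cytosolic or nuclear), 1 in all 3 libraries, 0 with a shared locus and 0.199% of the height. Of these peaks, 100% of those with known strand lay within 500 nt of the 5′ end, on few genes and with no value for other genes at that height. Merging peaks within 100 nt gave 4 genes with a shared locus, and within 200 nt 5. No share over all protein-coding genes was at hand for these distances. The 2.11% for overlapping peaks is not a background for them, since merging can raise the count in any gene. Restricting to spans of at least 10000 nt gave 89.5% of peaks in the outer 10%. Counting only peaks that lie in 1 gene span left 15 chaperone genes with a peak, without a background at that setting. Leaving out a library gave 11 to 15 genes with a peak, the lowest without replicate 1. The alternatives on positions were chosen after seeing the data. Low heights limit the lists, since most genes seen once stood at 3 or 4 units.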
